A study of Arabidopsis thaliana with 26 samples.

Results

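The CKI1 viewpoint is a single HindIII restriction fragment of 709 bp at chr2:19463099-19463807 (TAIR10), inside CYTOKININ-INDEPENDENT1 (CKI1, AT2G47430), a histidine kinase gene on the long arm of chromosome 2. Its contacts with the rest of the genome were measured by circular chromosome conformation capture (4C), in which cross-linked DNA is digested, ligated and amplified outward from 1 chosen fragment, so that every read gives the position of a fragment that had been ligated to it. It is 1 of 13 viewpoints of the study, and its replicates A and B are 2 of the 26 libraries. All libraries came from the aerial tissue of 14-day-old Arabidopsis thaliana seedlings of the ecotype Col-0, grown on MS medium in long days, with no treatment or mutant genotype, so what differs between viewpoints is the fragment amplified, with its primers and, for some, the second enzyme and the sequencing batch. The reads are means over all cell types of that tissue, and each viewpoint is 1 fragment.

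CKI1 was the viewpoint nearest to a chromosome end. It lay 0.235 Mb from the end of chromosome 2 and 15.9 Mb from the centromere. Next came MEA F6 and MEA F8, 2 neighbouring fragments at 0.545 and 0.548 Mb from the end of the short (left) arm of chromosome 1, and SWN at 0.886 Mb on the left arm of chromosome 4. FIS2, the only other viewpoint on the same arm, lay 4.71 Mb from the end. The remaining viewpoints were FLC, FWA, AG, PHE1, YAO, the heterochromatic knob hk4s, AT3G44380 and AT1G51860, between 1.76 and 11.2 Mb from an end. Arms are written below as 1L, 1R and so on, L being the arm that begins at position 1.

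A linear chromosome ends in a telomere, an array of a short repeat that telomerase adds, and in most plants this repeat is TTTAGGG. In Arabidopsis, FISH work has placed telomeres around the nucleolus, while the pericentromeric heterochromatin forms chromocentres at the nuclear periphery. CKI1 itself is known for its role in the female gametophyte and in vascular development.

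The viewpoint end that was amplified is shown because it fixes which fragment end the reads start from. The stretch lies wholly in intron 1 of CKI1, which is transcribed from the minus strand, and reads 5′ to 3′ on the plus strand at chr2:19463709-19463807. Capitals mark the DpnII site (GATC) and the HindIII site (AAGCTT) at either end of it.
CKI1 viewpoint end: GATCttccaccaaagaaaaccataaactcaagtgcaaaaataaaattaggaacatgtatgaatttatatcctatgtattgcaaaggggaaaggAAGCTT
Primer towards HindIII, plus strand, chr2:19463782-19463801: tgtattgcaaaggggaaagg
Primer towards DpnII, minus strand, chr2:19463713-19463735: gtttatggttttctttggtggaa
The whole fragment covers 265 bp of intron 1, exon 2 (87 bp), intron 2 (144 bp), exon 3 (66 bp), intron 3 (114 bp) and 33 bp of exon 4. Between it and the chromosome end lie 234 kb with 75 protein-coding genes. The nearest of these are AT2G47440 and CAO, the chlorophyllide a oxygenase gene, and DIM1A adjoins CKI1 on the centromere side.

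The assembled end of 2R is the arm end this viewpoint sits beside, and it is shown with 2 of the other ends that it met. Capitals mark whole copies of TTTAGGG, or of CCCTAAA, its reverse complement, where the sequence starts at position 1 of a chromosome. Sequences are from the RefSeq assembly TAIR10.1.
End of 2R, chr2:19698230-19698289: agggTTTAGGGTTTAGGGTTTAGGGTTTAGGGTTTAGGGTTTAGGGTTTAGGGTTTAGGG
End of 1R, chr1:30427612-30427671: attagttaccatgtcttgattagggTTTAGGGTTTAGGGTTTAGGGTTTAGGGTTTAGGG
End of 1L, chr1:1-60: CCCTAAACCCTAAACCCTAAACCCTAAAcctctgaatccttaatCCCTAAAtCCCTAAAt
The last 2 kb of 2R held 81 copies of the repeat. Fewer copies were assembled elsewhere: 1L had 8 copies in its last 2 kb, 3L 10, 5R 6, 1R 5, 4R 5, 5L 1 and 3R 1. These are copies in the direction expected for that end, and 3R had 4 more in the opposite direction. The last 2 kb of 2L and 4L contain 1000 unknown bases each, with no copy on 2L and 1 in the opposite direction on 4L. Those of 3L contain 100 unknown bases. Contacts were therefore measured with fragments beside the repeat, not with the repeat itself.

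A read was used where it lay at a HindIII end of a fragment at least 1 kb from the viewpoint and at least 100 kb from a centromere. This left 851355 reads in library A and 963711 in library B, 26.8% and 29.3% of the HindIII-end reads, on 65060 fragments. The viewpoint fragment itself held 69.0% and 65.9% of the HindIII-end reads. The other 24 libraries had 273441 to 3560836 used reads (median 679103). Levels are given as reads scaled to a total of 1000000 used reads (RPM) per fragment, averaged over all fragments of a region, with 0 counted. In the CKI1 libraries 1 read was worth 1.17 and 1.04 RPM, and 54.2% and 52.4% of the used fragments had a read, so single fragments at the genome-wide level rest on few reads. Reads of PCR products are not separate molecules. Levels and ranks of CKI1 among the 13 viewpoints are descriptions without a test, since an exact permutation over viewpoints could not fall below p = 0.0769. The window tests further on take their error from the spread between libraries of the same viewpoint. They compare the viewpoints that were sequenced and do not cover the spread among viewpoints in general.

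More than any other viewpoint, by share of used reads, CKI1 contacted other chromosomes. These took 48.4% of reads in library A and 51.9% in library B, 50.1% ± 2.52 (SD, n = 2), against 18.6% to 45.7% in the 24 libraries of the other viewpoints. Other chromosomes held 84.2% of the used fragments for CKI1, 74.4% for the viewpoints on chromosome 1 and 76.7% for FLC. The shares of reads are therefore not on an equal footing. The level on other chromosomes was 8.83 and 9.48 RPM per fragment in the CKI1 libraries, also the highest viewpoint mean of the 13. Single libraries overlapped here, since MEA F6 had 9.29 and 7.72 RPM, and the 24 other libraries ranged from 3.84 to 9.29 RPM. Local contacts, up to 1 Mb from the viewpoint, took 31.4% and 27.3% of reads for CKI1, within the 23.1% to 47.9% of the viewpoint means of the others.

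On the rest of its own chromosome the CKI1 means per fragment were the lowest of the 13, with overlap between libraries. On its own arm beyond 1 Mb, CKI1 had 24.3 and 24.8 RPM, against viewpoint means of 25.5 to 139 RPM in the others. MEA F8, the next, had 21.9 and 29.2 RPM, so its library A was below both CKI1 libraries. By share of reads CKI1 ranked 9 of 13 for this class, with 18.9% ± 0.245. On the other arm of chromosome 2, CKI1 had 8.13 and 9.23 RPM, against viewpoint means of 9.48 to 19.0 RPM in the others. MEA F8 was again the next, with 8.49 and 10.5 RPM. The other arm is short and took 1.64% ± 0.148 of the CKI1 reads. Arms differ in length and viewpoints in how much arm lies within 1 Mb of them, so these ranks also carry the position of each viewpoint. The share on other chromosomes depended on how the fragments beside the viewpoint were weighed: it was 57.7% with 10 kb left out around each viewpoint and 60.9% with the highest fragments capped. With all counted fragment ends in place of HindIII ends it was 50.4%, and SWN was then higher at 54.5%.

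Along its own arm the contact level fell with distance, and beyond 10 kb the sides differed by at most 0.35 on the log2 scale. Within 10 kb the sides differed: 7 fragments towards the chromosome end averaged 2936 and 2467 RPM, against 18175 and 13925 RPM for 7 fragments towards the centromere, log2 differences of −2.63 and −2.50. From 10 to 50 kb the end side had 1812 and 1665 RPM, against 1798 and 1605 RPM on the centromere side. From 50 to 100 kb the end side was somewhat higher in both libraries, with 631 and 589.6 RPM over 22 fragments, against 556 and 464 RPM over 10 fragments on the centromere side (log2 differences of 0.18 and 0.35). Between 100 kb and the chromosome end, levels were 207 and 190.3 RPM on the end side, against 206 and 185 RPM at the same distance on the centromere side (log2 differences of 0.01 and 0.04).

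Farther towards the centromere the level was 123 and 131 RPM at 235 to 500 kb, 77.4 and 85.3 RPM at 0.5 to 1 Mb, and 70.1 and 67.2 RPM at 1 to 2 Mb. It was 44.2 and 43.4 RPM at 2 to 5 Mb, 19.7 and 21.5 RPM at 5 to 10 Mb, and 10.1 and 10.5 RPM at 10 to 15.8 Mb. The last value is close to the level on other chromosomes. At 5 to 10 Mb, CKI1 averaged 20.6 RPM, the lowest of the 10 viewpoints with an arm that long (viewpoint means of 23.2 to 37.6 RPM in the others, single libraries from 20.9 RPM). At 1 to 2 Mb it ranked in the middle, with 68.7 RPM against a median of 70.8 RPM over the other viewpoints.

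**Figure D1:**
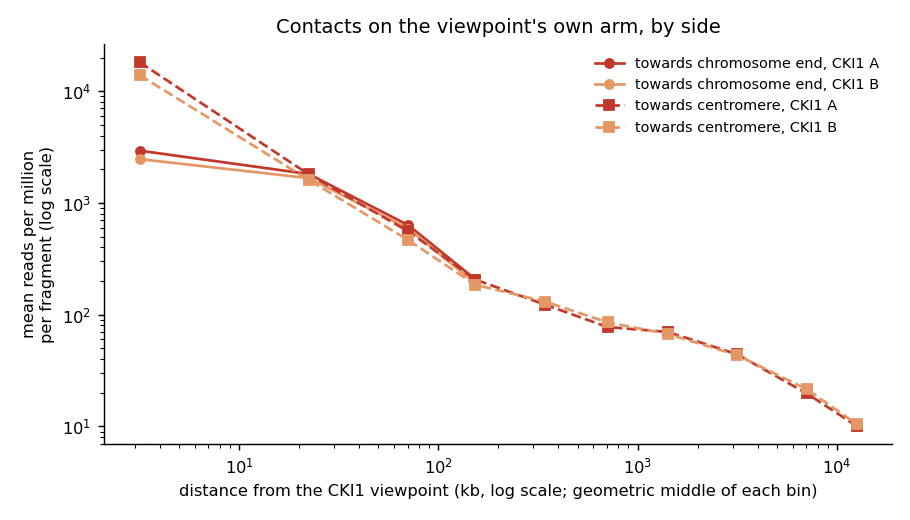
Mean RPM per fragment (log axis) against distance from the CKI1 viewpoint (kb, log axis, middle of each bin) on the long arm of chromosome 2, with solid lines for the side towards the chromosome end and dashed lines for the side towards the centromere, for replicates A and B. The sides lie together from 10 kb to 235 kb, where the chromosome ends, except for a small excess on the end side at 50 to 100 kb, and apart within 10 kb, where the centromere side is higher.

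On other chromosomes, contacts were concentrated at the arm ends. The 500 kb at each end of chromosomes 1, 3, 4 and 5 were set against the rest of the same arm. Over the 8 arms the log2 ratio averaged 1.67 in library A and 1.66 in library B, a mean of 1.66 ± 0.01 (SD, n = 2) and a 3.17-fold higher level at the ends. This was the highest of the 13 viewpoints. MEA F6 had 0.97 and 1.38, MEA F8 0.95 and 1.36, and SWN 0.89 and 1.08. FIS2, on the CKI1 arm, had 0.74 and 0.79. FWA and FLC lay between 0.69 and 0.81, YAO at 0.41 and 0.38, and AG at 0.25 and 0.23. PHE1, AT3G44380 and AT1G51860 were below 0 in both of their libraries. In these averages no library of another viewpoint reached either CKI1 library. The averages cover different arms, since each viewpoint has its own other chromosomes. Those of MEA leave out 1L and 1R and include 2L, where MEA F6 had 0.34 and 0.89 and MEA F8 0.46 and 0.99. The gap to MEA therefore also carries the choice of arms, and single arms are compared below.

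**Figure D2:**
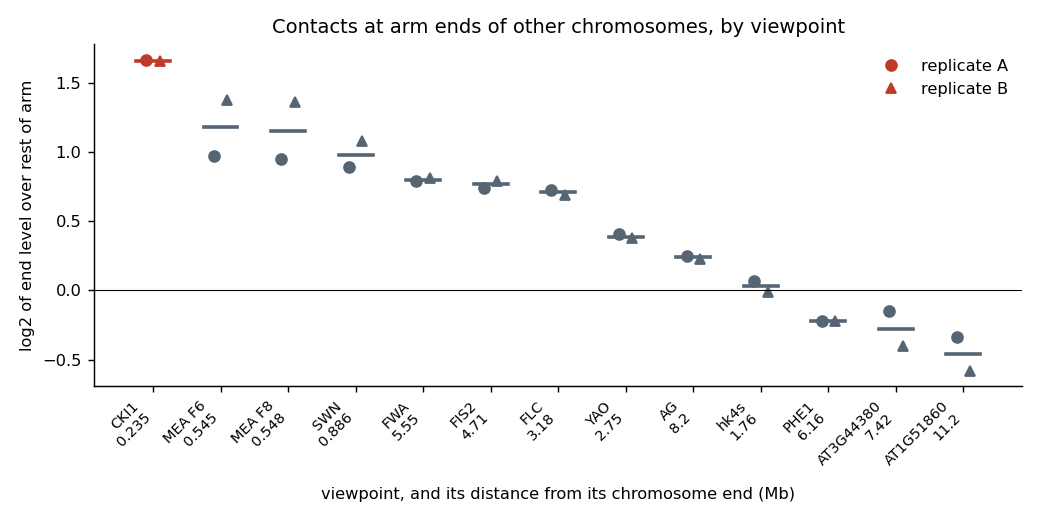
Log2 ratio of the mean RPM per fragment within 500 kb of chromosome ends to that of the rest of the arm, averaged over the arms of other chromosomes, for each viewpoint, labelled with its own distance from its chromosome end (Mb); circles are replicate A, triangles replicate B and bars their mean. Both CKI1 points, at 1.67 and 1.66, stand above those of the other 12 viewpoints, of which MEA F6 and MEA F8 come nearest. The arms averaged differ between viewpoints, as each has its own other chromosomes.

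All 8 ends took part. The end of 1R had 29.5 and 33.2 RPM, against 7.21 and 7.50 RPM in the rest of that arm, the highest ratio (log2 2.03 and 2.15). The end of 5R followed with 27.2 and 26.6 RPM, against 7.02 and 7.47 RPM. The end of 1L had 28.4 and 34.8 RPM and that of 5L 27.7 and 31.7 RPM. The ends of 3L, 3R and 4R had 24.6 to 27.5 RPM in either library. Fragments with a read were also more common there: 83.7% and 82.9% of the 258 fragments of the 1R end had one, against 46.0% and 43.9% of the rest of the arm. On every one of the 8 arms the CKI1 mean ratio was above that of the highest other viewpoint, by the least on 3R, where CKI1 had 1.43 and MEA F6 1.38. Single libraries overlapped on 2 arms. On 3R, CKI1 had 1.48 and 1.38, against 1.24 and 1.52 in MEA F6 and 1.17 and 1.45 in MEA F8. On 4L, CKI1 had 1.37 and 1.28, against 0.31 and 1.36 in MEA F8. On the other 6 arms both CKI1 libraries were above every other library compared. The arms of chromosome 1 could be compared with only 8 other viewpoints, without MEA, and those of chromosome 4 with 7, without SWN.

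The ends of the short arms of chromosomes 2 and 4 were the low ones. The end of 4L had 14.2 and 14.0 RPM, 0.521 and 0.475 of the mean over the other 7 ends. It was still above the rest of its arm, which had 5.50 and 5.76 RPM, the lowest level among the arms of other chromosomes. In the other 7 viewpoints for which 4L is on another chromosome, the corresponding fraction ran from 0.473 to 1.23. The end of 2L, across the centromere from CKI1 on the same chromosome, had 14.0 and 18.6 RPM. It was followed by 9.27 and 9.55 RPM at 0.5 to 1.5 Mb and by 6.18 and 6.88 RPM beyond. The other end of its own chromosome was thus below 7 ends of other chromosomes in both libraries.

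The excess was graded with distance from the end. Relative to the mean of the other chromosomes, the outermost 100 kb stood at 3.85 and 3.89 in the CKI1 libraries, against 0.540 to 2.90 in the 24 other libraries. The ratio was 3.08 and 2.89 at 100 to 250 kb, 2.40 and 2.47 at 250 to 500 kb, and 1.78 and 1.73 at 0.5 to 1 Mb. In each of these bins both CKI1 libraries were above all others, narrowly in the last, where MEA F8 library B had 1.72. The ratio was 1.45 and 1.43 at 1 to 2 Mb, second to AG. In AG, 1 fragment on 2R, an arm not counted for CKI1, held 28.4% and 27.2% of the reads of that bin. The CKI1 ratio was 1.21 and 1.21 at 2 to 4 Mb, and below 1 (0.966 and 0.966) at 4 to 8 Mb. Beyond 8 Mb it was 0.567 and 0.581, the lowest viewpoint mean of the 13 (0.589 to 1.04 in the others). Single libraries overlapped, the lowest being MEA F6 library B with 0.535. Read from the centromere outward, DNA at 0.1 to 0.5 Mb stood at 0.413 and 0.366, and DNA at 8 to 17 Mb averaged 1.49, the highest of the 13.

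**Figure D3:**
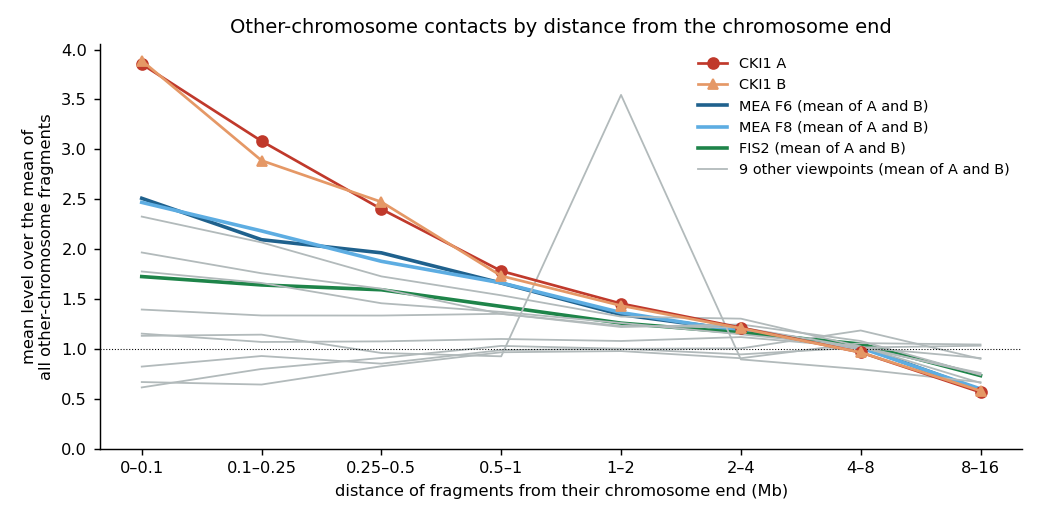
Mean RPM per fragment relative to the mean over all fragments on other chromosomes (linear axis), by distance bin from the chromosome end (Mb), for CKI1 replicates A and B, and as means of both replicates for MEA F6, MEA F8, FIS2 and 9 other viewpoints; the dotted line marks 1. CKI1 decreases from 3.85 and 3.89 in the outermost 100 kb to 0.567 and 0.581 beyond 8 Mb, and the grey peak at 1 to 2 Mb is that of AG. In that bin 1 fragment on 2R held 28.4% and 27.2% of the AG reads.

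The contacts were then counted in non-overlapping windows of 100 used fragments, 548 windows on chromosomes 1, 3, 4 and 5 with a mean length of 179.8 kb. The libraries A and B ranked these windows alike (Spearman rho 0.892 across windows, which share a library and are not independent). The median window had 7.17 and 7.83 RPM. Of the 50 highest windows, 34 were centred within 1 Mb of a chromosome end, where 43 of all windows lie, and 23 within 500 kb, where 24 lie. The outermost window was the highest of its arm on 5 of the 8 arms in library A and on 6 in library B.

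By rule, the 10 highest windows by the lower of both replicates, with at most 2 from an arm, and the outermost window of each arm are named. The window at the end of 1R (chr1:30241737-30427671, 60 protein-coding genes) had 37.8 and 41.6 RPM in the CKI1 libraries, against viewpoint means of 4.59 to 16.0 RPM in 8 other viewpoints. The end window of 5R (chr5:26771435-26975502, 61 protein-coding genes) had 34.2 and 34.1 RPM, against viewpoint means of 3.35 to 19.8 RPM in 11 others. Those of 3R, 1L and 3L had 36.7 and 37.7, 36.6 and 40.1, and 34.6 and 36.3 RPM in the CKI1 libraries. The end windows of 5L and 4R had 30.6 and 35.3 RPM and 29.3 and 28.3 RPM. The window next to that of 4R had 32.4 and 26.5 RPM, and the one next to that of 5L (chr5:180752-396819) was also among the 10 highest. The end window of 4L (chr4:1-191782, 57 protein-coding genes) had 14.3 and 14.5 RPM and ranked only 49 of 548, with viewpoint means of 3.28 to 11.3 RPM in 7 others. In every one of these 10 windows CKI1 had the highest mean of the viewpoints compared. In 9 of them both CKI1 libraries were also above every other library compared, the exception being 4L, where MEA F6 library A had 15.6 RPM. Those named as the highest were picked by their CKI1 level, so their rank is no separate support.

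The highest window of all was not at an end. It lay beside the centromere of chromosome 3 (chr3:13957962-14248676, 9.36 Mb from the end) and had 39.8 and 54.8 RPM. A single fragment, chr3:14193385-14203799, held 45.7% and 44.8% of its reads. That fragment also had 1497 reads in the genomic DNA library, 166 times the median fragment. Without it the window had 21.8 and 30.5 RPM. CKI1 was the fourth highest viewpoint there, FWA having 57.9 RPM.

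**Figure D4:**
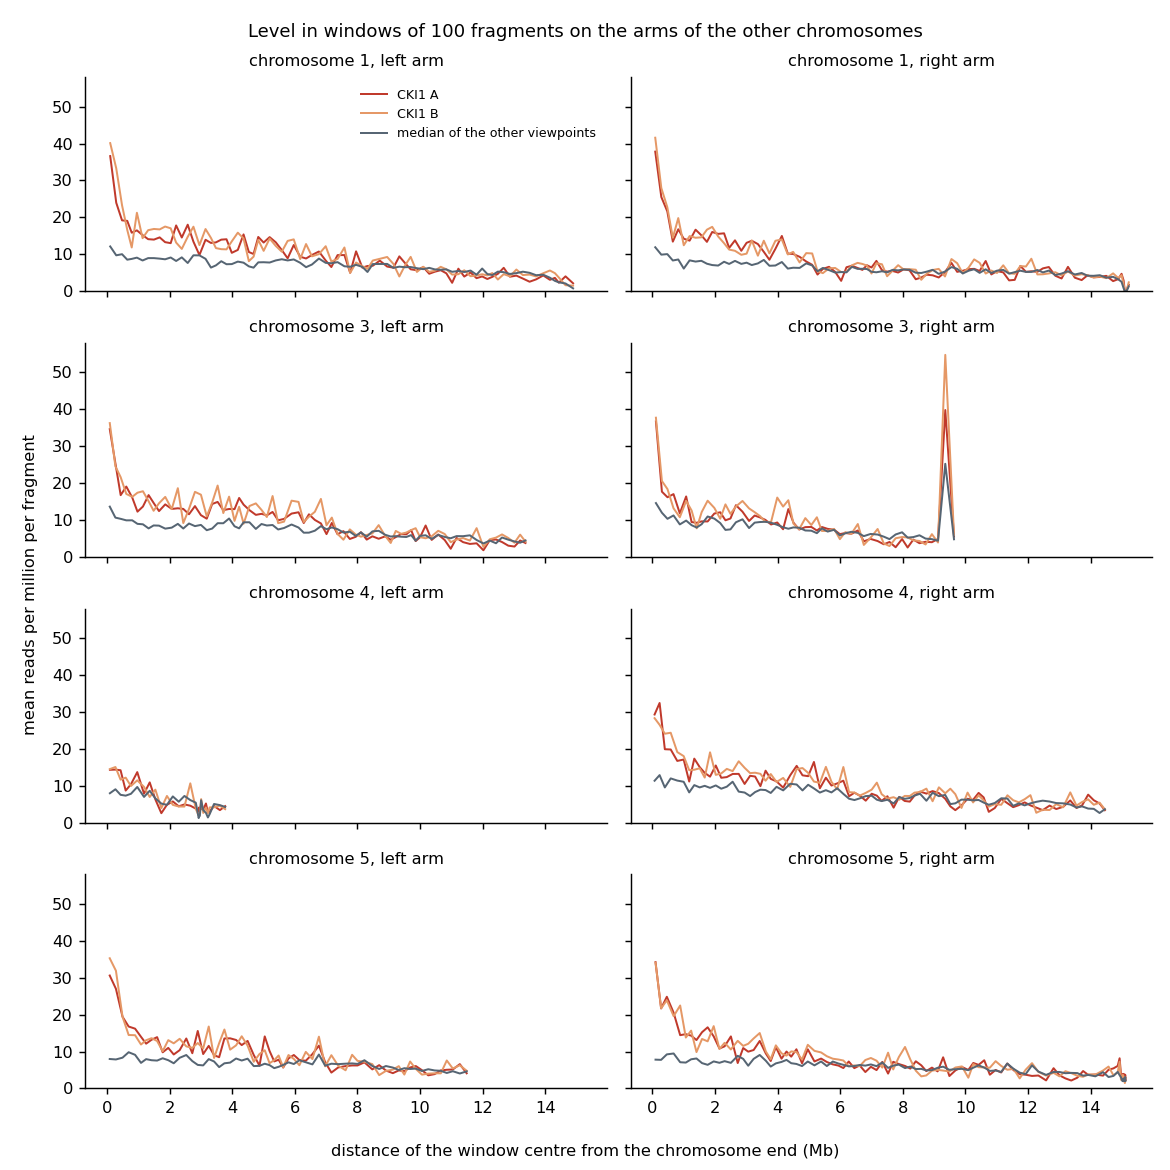
Mean RPM per fragment in windows of 100 fragments against distance of the window centre from the chromosome end (Mb), in 1 panel for each of the 8 arms of chromosomes 1, 3, 4 and 5; lines are CKI1 replicates A and B and the median of the other viewpoints for which the arm is on another chromosome. The outermost CKI1 windows stand at 28.3 to 41.6 RPM on 7 arms and at 14.3 and 14.5 RPM on the left arm of chromosome 4, and the spike on the right arm of chromosome 3 is the window with the repeat-rich fragment.

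Each window was tested with edgeR's quasi-likelihood test on rounded counts, with library size set to all used reads and Benjamini-Hochberg adjustment over all windows (threshold 0.05). All 3 comparisons below use the same CKI1 libraries. Against the mean of the other viewpoints for which a window also lay on another chromosome, 236 of 546 windows (43.2%) passed, 227 of them higher in CKI1 (41.6%) and 9 lower. All 24 windows centred within 500 kb of an end were higher (median log2 difference 1.47), as were 18 of 19 at 0.5 to 1 Mb (median 0.90) and 36 of 45 at 1 to 2 Mb (0.83). The numbers were 77 of 95 at 2 to 4 Mb (0.65), 59 of 150 at 4 to 8 Mb (0.30) and 13 of 213 beyond 8 Mb (0.05), where 6 of the 9 lower windows lay.

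The split between higher and lower windows depended on the scaling. The median log2 difference of all windows was 0.32 with all used reads as library size, −0.05 with TMM factors, −0.16 with the reads of the tested windows as library size and −0.01 with DESeq2. The calls were then 126 higher and 100 lower (TMM), 101 higher and 163 lower (tested windows) and 144 higher and 97 lower (DESeq2). Under each of these, the 24 windows within 500 kb of an end were all higher. Without CKI1 library B the count of calls was 157.

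**Figure D5:**
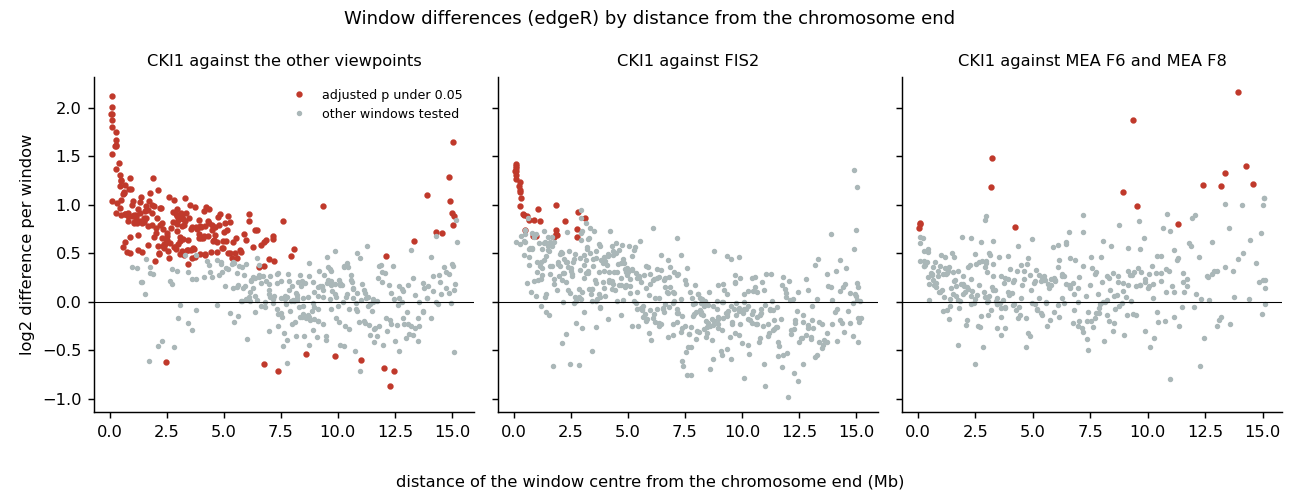
Log2 difference of each window on other chromosomes between CKI1 and the other viewpoints (left), FIS2 (middle) and MEA F6 with MEA F8 (right), against distance of the window centre from the chromosome end (Mb); red points passed an adjusted p of 0.05 and grey points are the other windows tested. Against the other viewpoints all 24 windows within 0.5 Mb are above 0 and passed, with a median of 1.47, and the median beyond 8 Mb is 0.05.

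The end window of 5R was 2.12 ± 0.16 (log2, SE) higher in CKI1 than in the other viewpoints (edgeR, adjusted p = 5.9e-24), the largest difference of all windows. The end window of 1R followed with 2.01 ± 0.15 (edgeR, adjusted p = 1.0e-21). The other named windows at arm ends were 1.04 to 1.94 higher, the lowest being 4L (SE 0.21, edgeR, adjusted p = 4.2e-05). The window beside the centromere of chromosome 3 was 0.99 ± 0.35 higher (edgeR, adjusted p = 0.0201), a call that was lost under every other scaling and without either CKI1 library (adjusted p = 0.0557 without A and 0.322 without B). With all counted ends its difference was −0.32.

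FIS2 is the closest control for the chromosome arm, since it shares the arm, the second enzyme and the sequencing batch. Against it 33 of 546 windows passed (6.04%), all of them higher in CKI1. Within 500 kb of an end 16 of 24 windows were higher (median log2 difference 1.03), within 0.5 to 1 Mb 5 of 19 (0.56), within 1 to 2 Mb 7 of 45 (0.41) and within 2 to 4 Mb 5 of 95 (0.32). At 4 to 8 Mb 0 of 150 passed by edgeR with this scaling (18 at an unadjusted p under 0.05), and beyond 8 Mb 0 of 213 (11 unadjusted). Other scalings gave calls there, nearly all lower in CKI1: at 4 to 8 Mb 5 lower with TMM, 8 lower with the tested windows as library size and 5 higher and 6 lower with DESeq2, and beyond 8 Mb 9, 15 and 10, all lower. At the end of 5R the window had 34.2 and 34.1 RPM in the CKI1 libraries, against 12.4 and 13.5 RPM in the FIS2 libraries (log2 1.40 ± 0.27, edgeR, adjusted p = 1.2e-04). At the end of 1R it had 37.8 and 41.6 RPM in CKI1, against 14.1 and 15.6 RPM in FIS2 (log2 1.42 ± 0.24, edgeR, adjusted p = 2.2e-05). That of 4L, at 14.3 and 14.5 RPM in CKI1 against 9.01 and 9.85 RPM in FIS2, did not pass (0.62 ± 0.30, edgeR, adjusted p = 0.234). In simulated data the FIS2 comparison recovered 22.0% of 1.5-fold changes, so a window without a call may still differ. The splits of calls were 29 higher and 15 lower with TMM, 17 and 24 with the tested windows as library size, and 54 and 18 with DESeq2. The count fell to 13 without CKI1 library B, 7 without FIS2 library A and 10 without FIS2 library B.

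MEA F6 and MEA F8 test whether a viewpoint near another end meets the same ends. Here 16 of 381 windows on chromosomes 3, 4 and 5 passed (4.20%), all higher in CKI1: 3 of 18 within 500 kb of an end, where the median log2 difference was 0.47, 2 of 72 at 2 to 4 Mb, 1 of 107 at 4 to 8 Mb, and 10 of 136 beyond 8 Mb (median 0.23). The end windows of 5R (log2 0.81 ± 0.22, edgeR, adjusted p = 0.0135), 4R (0.76 ± 0.19, edgeR, adjusted p = 0.0135) and 3L (0.80 ± 0.23, edgeR, adjusted p = 0.0315) were the 3 at the ends. With TMM or with the tested windows as library size only that of 5R passed (edgeR, adjusted p = 0.0155 and 0.0127). The end window of 5R had 34.2 and 34.1 RPM in CKI1, against 17.3 and 22.4 RPM in MEA F6 and 18.2 and 20.1 RPM in MEA F8. That of 3R had 36.7 and 37.7 RPM in CKI1, against 27.1 and 29.9 RPM in MEA F6 and 23.6 and 30.3 RPM in MEA F8, and did not pass (0.42 ± 0.25, edgeR, adjusted p = 0.355). In both windows the libraries of CKI1 and MEA did not overlap.

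The largest difference, singled out after its value was seen, was in a window at 13.9 Mb from the end of 4R. It lies near the centromere, at 0.0485 of the arm length from it, and had 7.60 and 6.33 RPM in CKI1 (log2 2.16 ± 0.30, edgeR, adjusted p = 8.8e-07). The calls at 2 to 4 Mb were on 4L, at 0.185 and 0.200 of the arm length from its centromere. Those beyond 8 Mb include the window with the repeat-rich fragment beside the centromere of chromosome 3. The calls against MEA were few and moved with single libraries: 8 without CKI1 library A and 1 without library B, 37 and 7 without MEA F6 libraries A and B, and 9 and 27 without MEA F8 libraries A and B. With the replicate letter as a block 30 windows passed, all higher in CKI1. MEA was cut with another second enzyme than CKI1, which cannot be told apart from position in this comparison. Splits were 13 higher and 3 lower with TMM, 12 and 6 with the tested windows as library size, and 22 and 8 with DESeq2.

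Among single fragments on other chromosomes, 8 of the 10 highest lay within 0.8 Mb of an arm end. Of all 54796 used fragments there, 428 lay within 100 kb of an end and 665 at 100 to 250 kb. A further 1087 lay at 250 to 500 kb and 2132 at 0.5 to 1 Mb. The highest was chr3:23417040-23429089, 0.0368 Mb from the end of 3R, with 251 and 298 RPM (214 and 287 reads), against a median of 54.7 RPM over 11 other viewpoints and at most 195 RPM in a single library of them. It is 12050 bp long and holds GG1, a G-protein gamma subunit gene, CKX6, a cytokinin oxidase gene, and APG1, a chloroplast envelope methyltransferase gene, among others. Next was a fragment in ECT5, of the YTH family that binds methylated RNA, with 201 and 203 RPM. The others had a median of 6.94 RPM there, and at most 130.1 RPM in a single library. It lies 4.18 Mb from the end of 3L (chr3:4180912-4182850), so it is far from an end. Long fragments offer more sequence between their ends but still only 2 HindIII ends, so the levels are per fragment and not per base.

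On 1L, a fragment with ATAF1, a NAC transcription factor gene, had 179.7 and 379.8 RPM (chr1:267796-271551), and the replicates differed there by more than 2-fold. A fragment with FAF2 had 166 and 225 RPM (chr1:766754-769058), and one with KCS1, a 3-ketoacyl-CoA synthase gene, and IQD18 had 153 and 183 RPM (chr1:54356-58840). At the end of 5R, a fragment in ICU2, the catalytic subunit of DNA polymerase alpha, had 155 and 173 RPM (chr5:26776022-26778937). In each of these both CKI1 libraries were above the highest single library of the other viewpoints (60.2 to 82.8 RPM). The listed fragments were picked for a high level in both CKI1 libraries, so their excess over other viewpoints is no separate support. A fragment at AT4G38930 had 159.7 and 149 RPM, one with PRP3 144 and 184 RPM, and one with VMA10, a vacuolar ATPase subunit gene, 143 and 135 RPM. The tenth, chr5:12046903-12046979, is a 77 bp pericentromeric fragment without a gene, with 138 and 196 RPM and 39 genomic DNA reads against a median of 9.

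On chromosome 2 more than 1 Mb away, the 5 highest fragments lay 1.14 to 2.32 Mb from the viewpoint. The first, with AT2G44370 and AT2G44380 (chr2:18322000-18323528), had 451 and 560.3 RPM, against a median of 11.1 RPM over 11 viewpoints on other chromosomes and at most 64.2 RPM in a single library of them. It too was picked by its CKI1 level. H3K27me3 covered 38.3% of its bases and its transcription coverage was 0. The next was a fragment with VLN2, a villin gene, and EMB2654 (298 and 635 RPM). Then came fragments with MBF1A (285 and 272 RPM), BIO2, the biotin synthase gene (262 and 370.4 RPM), and TCH3 and CAM2, calmodulin-like and calmodulin genes (322 and 250.1 RPM). In these 4, H3K27me3 covered 1.87% to 9.81% and H3K36me3 39.0% to 76.6% of bases.

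The same contact could be read from both sides where the partner was itself a viewpoint. The 100 fragments around MEA F6 had 17.5 and 22.9 RPM in the CKI1 libraries, 1.81 and 2.24 times the mean of arm 1L. Around CKI1, the MEA F6 libraries stood at 2.61 and 3.05 times the mean of arm 2R. The neighbouring MEA F8 gave 17.1 and 23.1 RPM from CKI1 and 14.1 and 21.1 RPM from its own side. Between CKI1 and SWN the levels were 13.1 and 10.7 RPM (2.04 and 1.61 times the arm) seen from CKI1, and 12.6 and 11.3 RPM (1.51 and 1.56 times) seen from SWN. FWA, at 5.55 Mb from its end, had 12.7 and 14.6 RPM from CKI1 and 13.1 and 15.6 RPM in its own libraries at CKI1. FLC had 10.3 and 11.8 RPM from CKI1 and 13.2 and 15.0 RPM from its own side.

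These 5 loci were above the mean of their arms from either side. MEA F6 and MEA F8 are neighbours that share most of the fragments around them, so they count as 1 position. On the same arm, FIS2 had 42.0 and 44.7 RPM from CKI1, and CKI1 had 52.3 and 54.8 RPM from FIS2. The loci of hk4s (3.27 and 3.64 RPM), AT3G44380 (4.09 and 3.48 RPM), AT1G51860 (4.90 and 5.48 RPM) and PHE1 (5.21 and 5.19 RPM) were below their arm means in both CKI1 libraries. Seen from their own libraries, the CKI1 locus stood at 0.874 and 0.727 times the mean of 2R for AT3G44380, 0.814 and 0.520 for AT1G51860 and 0.794 and 0.973 for PHE1, but at 1.17 and 0.935 for hk4s. YAO was at 0.655 and 1.06 times its arm from CKI1, and CKI1 at 1.29 and 1.07 times from YAO. AG was below the arm mean from either side, at 0.576 and 0.743 from CKI1 and 0.551 and 0.573 from AG. In the AG libraries the CKI1 locus had 9.97 and 11.6 RPM. On 2R beyond its last 500 kb these libraries had 18.4 and 20.5 RPM. The same part of the other arms of other chromosomes had 5.22 to 8.37 RPM. A single 2R fragment, chr2:17820738-17821417, held 3.47% and 3.76% of the used AG reads. The ratio from AG is thus relative to a high arm mean.

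Across all windows on chromosomes that both viewpoints see as other chromosomes, 6 viewpoints had profiles about equally like that of CKI1: FIS2 (mean Spearman rho 0.880 over the 4 pairs of libraries), FWA (0.879), MEA F6 (0.855), SWN (0.849), MEA F8 (0.842) and FLC (0.838). The pairs overlapped, at 0.870 to 0.893 for FIS2 and 0.814 to 0.903 for MEA F6, so the order among them is not settled. YAO had 0.735, AG 0.609, hk4s 0.385 and AT3G44380 0.307, while PHE1 (−0.100) and AT1G51860 (−0.150) were below 0. The windows are the points and share their libraries, depth and mappability, so these are descriptions without a test. Each rho also rests on its own set of windows, 548 for FIS2, 442 for FWA and 381 for MEA, and on libraries of unequal depth.

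The deposited tables give, for each fragment, the percentage of bases covered by reads of published chromatin and transcript profiles. The viewpoint fragment was covered by H3K27me3, the Polycomb mark of silent genes, over 37.9% of its bases, by H3K36me3 over 9.45%, and by transcripts over 0%. H3K18Ac covered 36.4% of it, H3K9Ac 20.6%, H3K4me2 9.31%, H3K4me3 0% and the input profile 29.1%, so its marks were mixed. Its neighbour towards the centromere had 43.8% H3K27me3 and that towards the end 12.2%. Over 2191 windows of 25 fragments on other chromosomes, the CKI1 contact level followed marks of active genes: rho was 0.561 and 0.546 with H3K4me2, 0.510 and 0.494 with H3K36me3, 0.482 and 0.466 with H3K4me3, 0.483 and 0.477 with H3K9Ac and 0.478 and 0.458 with transcription. It ran against H3K9me2, the mark of heterochromatin (−0.351 and −0.344), H3K27me1 (−0.334 and −0.321) and the share of transposable elements (−0.522 and −0.492). These values are not particular to CKI1. With H3K4me2 the mean rho of CKI1, 0.554, ranked 3 of 13. FIS2 had 0.562, MEA F6 0.555 and MEA F8 0.532. The others had a median of 0.432 and a lowest value of −0.121 (PHE1). With H3K9me2 FIS2 had −0.357 and MEA F6 −0.436.

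With H3K27me3, 1 of the marks on the viewpoint fragment, rho was 0.076 and 0.080. The 10% of windows with most contacts had 10.7% and 10.8% coverage by H3K27me3, against 10.9% and 10.9% in the rest. They had 38.5% and 38.4% H3K4me2, against 27.2% and 27.2%, and 0.697% and 0.749% H3K9me2, against 6.27% and 6.27%. These marks change along an arm together with distance from the centromere. Within the outer part of the arms (the 730 windows nearest to an end as a fraction of arm length), rho was 0.203 and 0.123 with H3K4me2, 0.156 and 0.088 with H3K36me3, −0.012 and 0.013 with H3K9me2 and −0.038 and 0.014 with H3K27me3. Columns that mark no chromatin state gave −0.020 and −0.024 for H3, 0.099 and 0.081 for genomic DNA reads and 0.121 and 0.131 for fragment length over all windows. In the outer part of the arms the rho with fragment length was 0.240 and 0.307, above that with any of the marks given here.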

How the data were processed

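Per the authors' methods, cross-linked chromatin was cut with HindIII, ligated, cut with a second enzyme (DpnII for CKI1) and amplified with inverse primers. Reads of 30 bp were aligned to TAIR10 without mismatches with Bowtie 0.12.7, up to 25 positions were allowed, and multiple hits were shared out by the reads nearby. The deposited values are therefore expected counts of reads per HindIII fragment. The deposited density columns are a coverage signal, the percentage of a fragment's bases under reads of published profiles. The deposited gene and transposon columns are scores of the annotated share of a fragment, and genomic DNA reads are deposited counts.

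From these, reads at HindIII ends on fragments at least 1 kb from the viewpoint and 100 kb from centromeres were scaled to RPM. Of 66846 fragments, 65060 were used. Window sums were rounded and tested with edgeR 4.0.16 (R 4.3.3) with 1 coefficient per viewpoint, separately for each target chromosome. Tested on simulated data, the comparison with the other viewpoints recovered 98.0% of 2-fold changes, that with FIS2 88.0% and that with MEA 96.6%, and called 1.45%, 1.45% and 2.07% of unchanged windows. Of 1.5-fold changes they recovered 68.0%, 22.0% and 50.0%, so small differences were often missed. The simulated viewpoints had a common mean per window, and the changes were drawn in either direction. These rates therefore do not cover how the real calls depend on the scaling. Alternatives were other scalings, DESeq2 1.42.0, windows of 25 fragments, other fragment filters, leaving out libraries and a replicate block. The authors call A and B biological replicates, and p-values measure the spread between libraries of a viewpoint. In each sequencing batch the libraries of a letter shared a pool and lane. The A minus B differences of the other viewpoints correlated with that of CKI1 at −0.11 to 0.12, over 0.1 in 3 of 12. Rule for named regions: the 10 highest windows with at most 2 per arm, the outermost window of each arm, the 10 highest fragments on other chromosomes without repeat-rich ones (over 10 times the median genomic DNA reads), the 5 highest on chromosome 2 beyond 1 Mb, and the other viewpoints' loci. The regions and lists were chosen with earlier results of these data known. Gene names and sequences are from RefSeq (TAIR10.1), in which all fragment starts tested were HindIII sites.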

Additional observations from a re-analysis of the deposited data

Results flagged for a closer look

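The arm-end log2 ratio was positive in both CKI1 libraries (mean 1.66) and negative in both libraries of 3 other viewpoints, with means of −0.46 for AT1G51860, −0.22 for PHE1 and −0.28 for AT3G44380. The opposite directions flagged these results. The difference was not tested, since each viewpoint has 2 libraries and 1 position. These 3 viewpoints lie 6.16 to 11.2 Mb from a chromosome end, against 0.235 Mb for CKI1.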

How the results depend on the processing

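The arm-end ratio of CKI1 was the highest of the 13 viewpoints under every alternative run: 1.65 with all counted ends, 1.71 with the second-site filter, 1.68 without repeat-rich fragments, 1.80 and 1.43 with ends of 250 and 1000 kb, and 1.66 to 1.67 without 1 replicate. The share on other chromosomes was 57.7% with 10 kb left out and 60.9% with capping, and 48.4% to 51.9% without 1 replicate. Windows of 25 fragments gave 536 calls of 2182 against the other viewpoints, 6 against FIS2 and 45 against MEA. DESeq2 gave 72 and 30 calls against FIS2 and MEA, all counted ends 74 and 50, and capping 106 against FIS2. Leaving out 1 CKI1 library gave 157 to 181 calls against the other viewpoints, 13 to 26 against FIS2 and 1 to 8 against MEA; leaving out 1 FIS2 library gave 7 to 10, and 1 MEA library 7 to 37 (MEA libraries were chosen after seeing the data). Leaving out 1 other viewpoint gave 220 to 251, the first batch alone 214 (192 higher and 22 lower) and DpnII viewpoints alone 283 (215 and 68). With a replicate block the calls were 242, 33 and 30 against the other viewpoints, FIS2 and MEA. The rho with H3K4me2 (mean 0.554) was 0.163 in the outer part of the arms and 0.761 with windows of 100 fragments. The rho with H3K9me2 in the outer part of the arms was near 0 and of opposite sign in the libraries (mean 0.001, against −0.348). Low rhos also changed sign in that part: H3K27me3 −0.012 against 0.078, genomic DNA −0.032 against 0.090 and input 0.043 against −0.056. The log2 difference of the window beside the centromere of chromosome 3 reversed with all counted ends (−0.32, against 0.99). The causes were not tested. Of the log2 differences of named windows, 264 of the alternatives against the other viewpoints kept direction and side of the threshold and 8 lost the call, all in that last window; against FIS2 these were 133 and 8, and against MEA 101 and 20, with 12 gained. Depth limits single fragments, where 1 read is 1.17 or 1.04 RPM.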
